A study of Mus musculus with 6 samples.

Results

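Expression of 10 genes of muscle excitation-contraction coupling and calcium handling was examined in the temporomandibular joint, the joint between the lower jaw and the skull, of mice with and without Igf2bp2. The genes were chosen by symbol from a table of 22032 genes: Ryr1, Cacna1s, Cacng1 and Jph1 (release of calcium), Casq1 and Casq2 (storage), Atp2a1, Atp2a2 and Sln (uptake) and Pvalb (buffering). Igf2bp2 encodes an RNA-binding protein that recognises methylated adenosine in mRNA. The knockout group (KO) is labelled Igf2bp2-KO, and Igf2bp2-/- in the description of the series, and the other group (WT) is labelled Igf2bp2-WT. The mice were littermates of 10 weeks, with 3 libraries of bulk poly(A) RNA per group. The sources used here do not state which part of Igf2bp2 is missing, the strain, whether animals were pooled, or whether each library is a separate mouse.

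In the median gene, KO 1 and KO 3 were no further apart than counting of read pairs alone would place them (observed variance over counting variance 0.941), and so were WT 2 and WT 3 (0.964), which is less than the sampling noise. The other pairs within a group had ratios of 1.31 to 1.63. KO 1 with KO 3, and WT 2 with WT 3, were therefore summed and counted as 1 sample each, so that each group has n = 2: KO 1+3 with KO 2, and WT 1 with WT 2+3. A p-value here measures only how far these samples spread, and that spread may be technical. Leaving out KO 2 or WT 1 leaves that group with 1 sample, which is then assumed to vary like the other group, so an FDR given without KO 2 or WT 1 comes from a smaller design and is printed with its log2 fold change. Across groups KO 2 deviated with WT 1 (correlation of deviations from the group means 0.220) and KO 1 and KO 3 with WT 2 and WT 3 (0.034 to 0.082), while the other 4 pairs of libraries had -0.141 to -0.104.

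In a skeletal muscle fibre, an action potential spreads along the transverse tubules and moves the voltage sensor, an L-type calcium channel, which opens the ryanodine receptor of the sarcoplasmic reticulum by direct contact. The released calcium binds troponin and starts contraction. Pumps of the SERCA family then return it to the reticulum, where calsequestrin holds it, while parvalbumin binds it in the cytosol of fast fibres and speeds relaxation. The jaw muscles attach around the joint, and most fibres of mouse jaw muscles are fast.

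The start regions of some of these genes are shown first. Any relation of these sequences to which genes passed the test below was not tested. RefSeq promoter windows (build GRCm38.p6, not the mm39 build that the submitters' notes name) were matched for 6 of the 10 genes by symbol. They are printed for Ryr1 (chr7:29125152-29125401, minus strand), Cacna1s (chr1:136052561-136052810, plus strand), Casq2 (chr3:102086165-102086414, plus strand) and the more upstream of 2 annotated starts of Pvalb (chr15:78206401-78206650, minus strand), each as the 250 bases before the start, 5′ to 3′. Ryr1 and Cacna1s encode the release channel and its sensor, Pvalb had the highest level per length, and Casq2 held both motifs searched for that are marked here. Capitals mark E-boxes (CANNTG, the class of site bound by the MyoD family) and MEF2 sites.
Ryr1: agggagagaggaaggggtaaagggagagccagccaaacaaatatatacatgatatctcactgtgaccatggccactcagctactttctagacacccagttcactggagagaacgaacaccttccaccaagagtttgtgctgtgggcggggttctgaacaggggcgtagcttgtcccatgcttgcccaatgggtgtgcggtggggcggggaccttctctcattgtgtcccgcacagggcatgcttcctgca
Cacna1s: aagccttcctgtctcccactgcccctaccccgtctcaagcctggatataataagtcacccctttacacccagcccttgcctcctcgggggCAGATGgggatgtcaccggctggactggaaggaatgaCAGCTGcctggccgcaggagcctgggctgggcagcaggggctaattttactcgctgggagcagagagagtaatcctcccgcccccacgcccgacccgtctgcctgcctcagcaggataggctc
Casq2: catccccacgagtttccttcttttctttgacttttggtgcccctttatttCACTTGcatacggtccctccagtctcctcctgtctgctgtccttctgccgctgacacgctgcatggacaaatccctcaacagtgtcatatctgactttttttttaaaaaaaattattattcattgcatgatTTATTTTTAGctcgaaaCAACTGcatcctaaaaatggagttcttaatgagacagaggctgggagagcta
Pvalb: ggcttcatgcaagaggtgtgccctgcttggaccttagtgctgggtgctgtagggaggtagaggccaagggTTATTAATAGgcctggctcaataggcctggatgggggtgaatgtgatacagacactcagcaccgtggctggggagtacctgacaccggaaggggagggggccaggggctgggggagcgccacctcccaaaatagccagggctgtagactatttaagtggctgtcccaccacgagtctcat
Both strands were searched, and a CANNTG match reads the same class on either. The Ryr1 window held no E-box and no MEF2 site. Cacna1s and Casq2 had 2 E-boxes each, and so did Casq1, while Atp2a1 had 1. The upstream Pvalb window had none, and the window of the second Pvalb start, not printed here, had 1, 111 bases before that start. MEF2 sites occurred in Casq2 (69 bases before the start) and in the upstream Pvalb window (180 bases before it). No 2 motif matches overlapped in these windows. Of all 32851 promoter windows of this length, 66.2% held an E-box and 2.92% a MEF2 site. An MCAT element (CATTCC) occurred in Cacna1s, 130 bases before the start, and in 12.6% of all windows, and a CArG box in none of the 6 genes and in 1.47% of all windows. A match is a description of letters only.

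Total counts were 28551236 to 35094127 per library, of which mitochondrial genes took 85.3% to 86.0% in KO and 90.6% to 90.8% in WT. Counts of nuclear genes were 4604575 to 4899680 in KO and 2625472 to 3205190 in WT. Igf2bp2 had 13, 14 and 10 counts in KO 1 to 3 against 38, 20 and 24 in WT 1 to 3 (log2 fold change -1.80, edgeR FDR 0.00589). Across the transcriptome 14632 genes were tested with edgeR's quasi-likelihood test, with a false discovery rate (FDR) under 0.05 as the threshold. Of them 9.15% were called higher in KO and 8.48% lower. Among markers of the labelled tissue, the cartilage genes Col2a1 and Acan were low (1.47 ± 0.0953 and 0.927 ± 0.150 CPM in WT, SD, n = 2). In KO they had 1.25 ± 0.450 and 0.696 ± 0.0252 CPM and were not called. The lubricin gene Prg4 had 11.3 ± 0.862 CPM in WT and 46.0 ± 4.78 in KO (log2 fold change 2.02, edgeR FDR 2.14e-07). Of 8 listed cartilage, synovial and ligament genes, 2 were called higher in KO and 0 lower, with a median log2 fold change of -0.25. Skeletal muscle RNA was present in every library: 14 sarcomere and Z-disc genes took 2.96% to 3.23% of nuclear counts in KO and 1.98% to 2.32% in WT. Of these 14 genes 12 were called higher in KO, and none lower. The 8 slow fibre genes had 65.4 to 70.1 summed CPM in KO and 69.4 to 75.9 in WT with none called (0 also by the DESeq2 Wald test), and the 6 cardiac genes 6.13 to 7.57 and 6.43 to 7.06, with 2 of them at 0 in every WT library. In bulk tissue, more muscle cells and more RNA per muscle cell cannot be told apart.

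Expression is given as CPM, that is counts relative to the library size after correction with trimmed mean of M-values (TMM) factors. Pvalb and Atp2a1 made up most of the signal of the 10 genes, with 73.4% to 77.5% of their counts in each library. All 10 genes together took 0.969% to 1.04% of nuclear counts in KO and 0.640% to 0.728% in WT, and the groups did not overlap. Per kilobase of the longest annotated transcript, the order of levels in WT was Pvalb (271 CPM per kb), Atp2a1 (88.8), Casq1 (23.5), Cacng1 (7.91), Ryr1 (6.39), Cacna1s (3.06), Atp2a2 (2.43), Casq2 (2.03), Jph1 (1.64) and Sln (1.13). The same genes stood in the first 7 places in KO, while Jph1 (1.91 CPM per kb) stood above Casq2 (1.72). Among neighbours in these orders, the samples overlapped in Cacna1s and Atp2a2 in KO, and in no other pair.

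**Figure D1:**
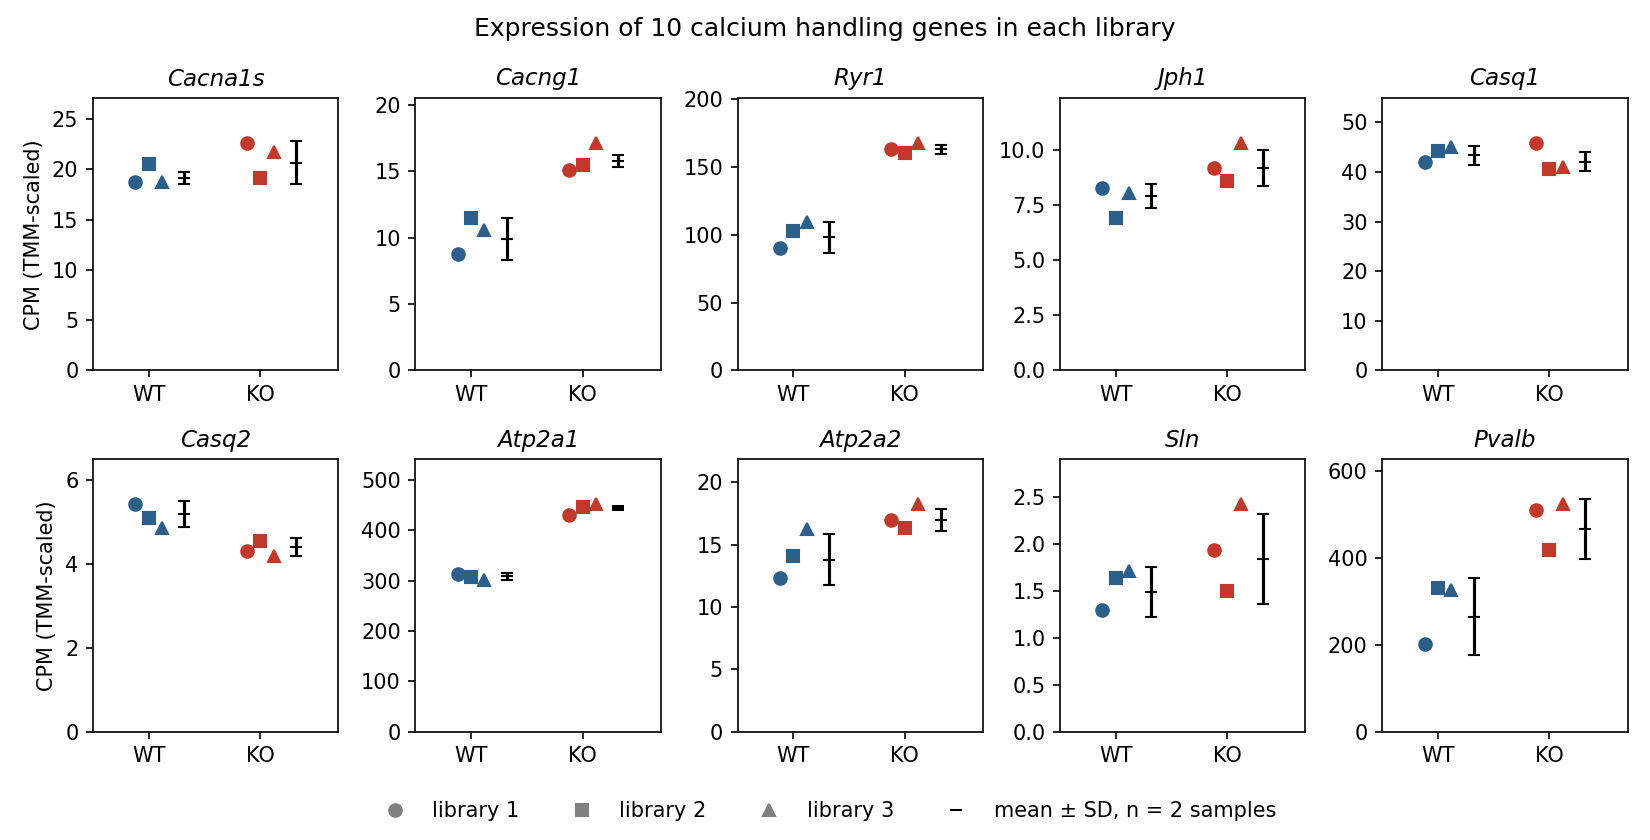
Level of each of the 10 genes in CPM (TMM-scaled, vertical axes from 0) in the 3 WT libraries (blue) and the 3 KO libraries (red), with the mean ± SD over the 2 samples of each group in black. All KO libraries lie above all WT libraries in Ryr1, Cacng1, Atp2a1, Atp2a2, Jph1 and Pvalb, below them in Casq2, and among them in Cacna1s, Casq1 and Sln.

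Of the release genes, Ryr1 and Cacng1 were higher in KO, while Cacna1s and Jph1 did not pass. Ryr1, the ryanodine receptor through which the reticulum releases calcium, had 163, 161 and 167 CPM in KO 1 to 3 and 90.2, 102 and 109 CPM in WT 1 to 3. The KO libraries lay close together and well above all WT libraries. Its log2 fold change was 0.73 (SE 0.13, edgeR FDR 0.00135), or 1.66-fold. Cacna1s, the pore-forming subunit of the voltage sensor that gates it, had 22.6, 19.2 and 21.8 CPM in KO and 18.7, 20.6 and 18.7 CPM in WT, and the groups overlapped. Its difference was 0.11 on the log2 scale (95% interval -0.14 to 0.36, edgeR FDR 0.578). Without KO 2, which leaves 1 KO sample, the log2 fold change of Ryr1 was 0.75. Over its 14 alternatives the FDR of Ryr1 ran from 7.74e-08 to 0.470, both in edgeR.

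Cacng1, the gamma subunit of the muscle calcium channel, which limits the current through it, had 15.1, 15.5 and 17.1 CPM in KO and 8.76, 11.5 and 10.6 CPM in WT. The groups did not overlap, and WT 1 was the lowest. The log2 fold change was 0.67 (SE 0.13, edgeR FDR 0.00270), and this call held without any single library. Jph1, a junctophilin that ties the transverse tubule to the reticulum, had 9.19, 8.60 and 10.3 CPM in KO and 8.28, 6.93 and 8.04 CPM in WT. KO 2 lay just above WT 1, so the groups were separated by a narrow gap. The difference was 0.22 (95% interval -0.06 to 0.51, edgeR FDR 0.282).

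Neither calsequestrin, the calcium-binding protein of the reticulum lumen, passed. Casq1, the form of fast fibres, had 45.8, 40.7 and 41.1 CPM in KO and 42.0, 44.3 and 45.1 CPM in WT. The highest and the lowest value were both from KO libraries. The difference was -0.04 (95% interval -0.29 to 0.20, edgeR FDR 0.848). In the annotation of GENCODE M21, exons of Casq1 overlap those of Gm17224 on the opposite strand, and with the strand setting unknown their reads cannot be separated. Casq2, the form of heart and slow fibres, had 4.30, 4.55 and 4.17 CPM in KO and 5.41, 5.08 and 4.86 CPM in WT. Here every KO library was below every WT library, by a small margin. The difference was -0.24 (95% interval -0.57 to 0.10, edgeR FDR 0.336). For Ryr1 the interval was 0.45 to 1.01, which lies above that of either calsequestrin; the difference between genes was not tested.

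Of the uptake genes, the fast pump was higher and the others did not pass. Atp2a1, which encodes SERCA1, the pump of fast fibres, had 432, 447 and 452 CPM in KO and 314, 307 and 301 CPM in WT. Values were even within the groups, with the highest library 1.05-fold above the lowest in KO and 1.04-fold in WT. The log2 fold change was 0.52 (SE 0.13, edgeR FDR 0.0144), or 1.44-fold. Exons of Atp2a1 overlap Rabep2 on the opposite strand in the same annotation, so a part of its reads may belong to that gene. Without KO 2 the FDR of Atp2a1 in edgeR was 0.285 (2.63e-05 to 0.816 over its 14 alternatives) at a log2 fold change of 0.52.

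Atp2a2 encodes SERCA2, the pump of slow fibres and heart, with a second form in most cells of the body. It had 17.0, 16.3 and 18.2 CPM in KO and 12.4, 14.1 and 16.3 CPM in WT, and KO 2 was almost level with WT 3. The difference was 0.29 (95% interval 0.02 to 0.56), which is an unadjusted p of 0.0370 and did not pass over all genes (edgeR FDR 0.136). Sln, a small membrane protein that binds SERCA and uncouples its ATP use from calcium transport, was the least abundant of the 10 genes. It had 76, 63 and 94 counts in KO and 38, 37 and 44 in WT, or 1.94, 1.5 and 2.42 CPM in KO and 1.30, 1.63 and 1.71 CPM in WT. The groups overlapped, and the interval of the difference was wide (0.31, 95% interval -0.24 to 0.86, edgeR FDR 0.465), so a change of this size was not detectable at this depth.

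Pvalb, the cytosolic calcium buffer parvalbumin, had 509, 417 and 522 CPM in KO and 201, 330 and 325 CPM in WT. The KO libraries were all higher, and WT 1 stood below the other WT libraries. The 1.64-fold range among WT libraries was the widest WT range of the 10 genes. The log2 fold change was 0.82 (SE 0.23, edgeR FDR 0.0387), or 1.76-fold, the largest of the 10. It was 0.52 without WT 1 (edgeR FDR 0.0497). Without KO 2 it was 0.97 (edgeR FDR 0.0742). The call was also lost with 6 separate libraries (FDR 0.0518) and by DESeq2's Wald test (FDR 0.191). Its FDR spanned 1.34e-08 to 0.225 over 14 alternatives. Parvalbumin is also made by some neurons. All 9 neuronal genes listed were called higher in KO (36.5 to 43.0 summed CPM in KO and 6.91 to 9.14 in WT, no gene at 0 in every library). Their part in the result was not tested. All 6 Schwann cell genes, by contrast, were called lower (473 to 492 summed CPM in KO and 1389 to 1435 in WT, none at 0), as were 2 of 4 tested adipocyte genes (292 to 364 summed CPM in KO and 288 to 433 in WT, none at 0 in every library), and their part was not tested either.

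In all, 4 of the 10 genes rose in KO (Ryr1, Cacng1, Atp2a1 and Pvalb) and none fell, against 9.15% of all genes called higher and 8.48% called lower. At an unadjusted p under 0.05, edgeR gave 5 of the 10 as higher, with Atp2a2 as the fifth, and 0 as lower. The share of all genes at that unadjusted p was not computed, and 9.15% and 8.48% refer to the FDR. The DESeq2 Wald test called 3 higher and 0 lower, against 774 higher and 597 lower among the 22032 genes to which it gave a fold change. All KO libraries were above all WT libraries in 6 genes and below them in 1, where the shares over all genes tested were 19.3% and 19.2%. The median log2 fold change was 0.30 for the 10 genes and -0.01 for all genes tested. With KO 2 left out, and so 1 KO sample, Cacng1 alone of the 10 passed (log2 fold change 0.70, edgeR FDR 0.0412, against 2.10e-06 to 0.734 over its 14 alternatives), while the log2 fold changes of Ryr1, Atp2a1 and Pvalb were 0.75, 0.52 and 0.97. Within KO 2 and WT 1 the log2 differences of Ryr1, Cacng1, Atp2a1 and Pvalb were 0.83, 0.82, 0.51 and 1.05, and between KO 1+3 and WT 2+3 they were 0.64, 0.55, 0.54 and 0.66, a split chosen after the data had been seen.

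Ratios of counts within a library do not depend on how libraries are scaled, so 7 ratios of pairs of these genes were compared. Ryr1 had 7.24, 8.38 and 7.69 counts for each count of Cacna1s in KO and 4.82, 4.98 and 5.83 in WT. The channel was thus higher relative to its sensor in every KO library, by 0.63 on the log2 scale (2.98 ± 0.119 in KO and 2.35 ± 0.119 in WT, SD, n = 2, exact permutation p = 0.333). The gamma subunit gene Cacng1 had 0.670, 0.806 and 0.786 counts per count of Cacna1s in KO and 0.468, 0.558 and 0.566 in WT. That is a log2 difference of 0.58 (exact permutation p = 0.333). Jph1 was lower relative to Ryr1 in every KO library, with 0.0563, 0.0535 and 0.0615 in KO and 0.0918, 0.0676 and 0.0736 in WT. The log2 difference was -0.52 (exact permutation p = 0.333). These ratios share Cacna1s or Ryr1, so they are not independent of each other. The value of 0.333 is the smallest that 2 against 2 samples allow in this two-sided test, so no ratio could pass, and adjusted over the 7 ratios it is 0.667. With 6 separate libraries the same ratios had the smallest possible value of 0.100 (exact permutation test), adjusted 0.233.

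The other 4 ratios overlapped between the groups. The fast to slow pump ratio Atp2a1/Atp2a2 was 25.4, 27.4 and 24.8 in KO and 25.4, 21.8 and 18.5 in WT (log2 difference 0.22, exact permutation p = 0.667). Casq1/Casq2 was 10.6, 8.95 and 9.85 in KO and 7.77, 8.72 and 9.29 in WT (0.19, exact permutation p = 0.667). Pvalb/Atp2a1 was 1.18, 0.932 and 1.16 in KO and 0.642, 1.07 and 1.08 in WT (0.33, exact permutation p = 0.667), with the low value in WT 1. Without WT 1 that difference was -0.05. Sln/Atp2a1 lay between 0.00335 and 0.00568 in all libraries, with a log2 difference of -0.23 that was 0.05 without KO 2.

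**Figure D2:**
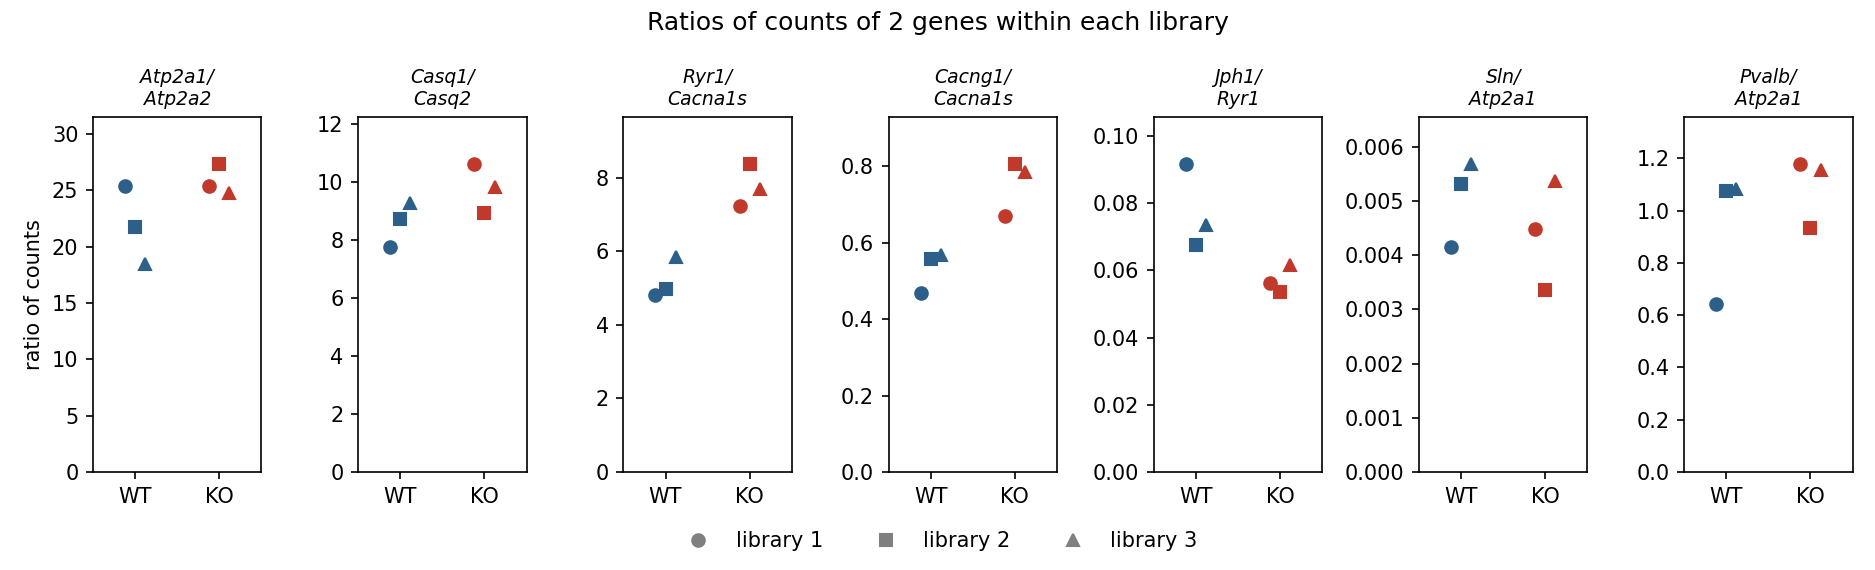
Ratio of the counts of 2 genes within each library (vertical axes from 0, no unit) for the 7 pairs, WT in blue and KO in red, with 1 point per library. The 3 KO libraries are above the 3 WT libraries for Ryr1/Cacna1s and Cacng1/Cacna1s and below them for Jph1/Ryr1; the other 4 pairs overlap.

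Since sarcomere genes were also higher in KO, the 10 genes were set against the summed counts of the 14 sarcomere and Z-disc genes in the same library. Much of that sum came from Ckm and Acta1, with 51428 and 40503 of 148695 counts in KO 1 and 20097 and 20923 of 63321 in WT 1. Ckm was not among the 12 genes of that list called higher (edgeR FDR 0.137). On the sarcomere scale the median of all genes tested shifted to -0.61, and 45.4% of all genes were called lower, so that only the order among genes is informative. Ryr1 had 43.1, 46.5 and 43.8 counts per 1000 sarcomere counts in KO and 41.6, 38.6 and 40.8 in WT, a log2 difference of 0.14 (edgeR FDR 0.470). Atp2a1 had 114, 129 and 118 in KO and 145, 116 and 112 in WT, with the highest value in WT 1. Its log2 difference was -0.08 (SE 0.16, edgeR FDR 0.694), so its sign turned at a value smaller than the SE. Pvalb (0.25) and Cacng1 (0.09) did not pass either (edgeR FDR 0.195 and 0.734). None of the 4 genes called above was called higher on this scale. Casq1 had 12.1, 11.8 and 10.7 counts per 1000 in KO and 19.4, 16.7 and 16.9 in WT, a log2 difference of -0.64 (SE 0.18, edgeR FDR 0.00419). Casq2 (-0.84, edgeR FDR 0.00520) and Cacna1s (-0.49, edgeR FDR 0.0425) were called lower as well, which makes 3 of the 10 genes against the 45.4% of all genes. These 3, with Atp2a2, lay below all WT libraries in every KO library on this scale, while Ryr1 lay above them in every KO library. The share of all genes separated in this way on this scale was not computed. With the 9 fast fibre genes as the scale, a choice made after the data had been seen, none of the 10 was called in either direction (Pvalb 0.44, edgeR FDR 0.225, and Casq1 -0.47, edgeR FDR 0.287).

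**Figure D3:**
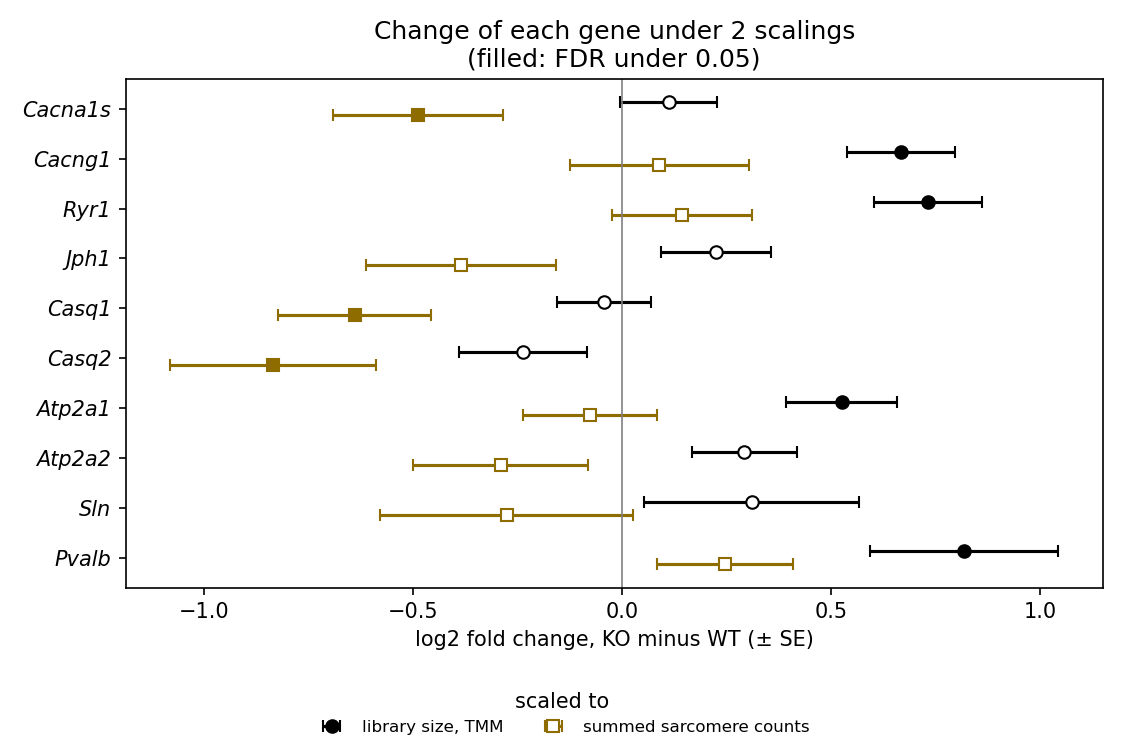
Log2 fold change of each gene (KO minus WT, ± SE) with libraries scaled by size and TMM (black circles) and by summed sarcomere counts (brown squares); filled symbols have an edgeR FDR under 0.05. Every gene is lower on the sarcomere scale, where Ryr1, Cacng1 and Pvalb stay above 0 and Cacna1s, Casq1 and Casq2 are filled below it.

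Beyond the 10 genes, 70 tested genes of 7 lists of calcium handling and excitation were examined. Of them 14 were higher in KO and 2 lower, with a median log2 fold change of 0.18. Over all genes tested 9.15% were higher and 8.48% lower, and each list below is read against these shares. The counts were 5 higher and none lower without KO 2, and 4 lower without WT 1, each with 1 sample left in that group. With sarcomere scaling they were 3 higher and 23 lower, where 45.4% of all genes were lower.

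Among 11 genes of the voltage sensor and the triad, 2 rose and none fell (median 0.02), against 9.15% and 8.48% of all genes. Cacna2d1, a further subunit of the voltage sensor, had 12.3 ± 0.273 CPM in KO against 6.84 ± 0.0566 in WT (SD, n = 2). It rose by 0.85 on the log2 scale (edgeR FDR 0.000269). With sarcomere scaling it had 0.26 (edgeR FDR 0.330, over alternatives 1.03e-05 to 0.330). Stac3, an adaptor needed for coupling of sensor and channel, rose by 0.58 on the log2 scale (edgeR FDR 0.0133, and 0.65 with an FDR of 0.0704 without KO 2, over alternatives 0.00103 to 0.948). Trdn, triadin, which links calsequestrin to the release channel, was the most abundant of the list, with 259 ± 33.1 CPM in KO against 328 ± 2.58 in WT. Its difference was -0.34 (edgeR FDR 0.116, or 0.00208 with 6 separate libraries, over alternatives 1.01e-05 to 0.349). Jph2, the other junctophilin of muscle, had 8.58 ± 0.152 CPM in KO against 10.6 ± 1.42 in WT (-0.30, edgeR FDR 0.146).

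The release and lumen list of 14 genes had 1 higher and 2 lower (median -0.03), which is near the 9.15% and 8.48% of all genes. Tmem38a, the TRIC-A potassium channel that balances charge during release, rose by 0.49 (edgeR FDR 0.0103), and Srl, the luminal calcium binder sarcalumenin, fell by 0.46 on the log2 scale (edgeR FDR 0.0104), as did the calmodulin gene Calm3, which fell by 0.49 (edgeR FDR 0.00806). Without KO 2 their log2 fold changes were 0.60, -0.43 and -0.44 and none of the 3 passed (edgeR FDR 0.0679, 0.252 and 0.241, against 0.000230 to 0.663, 8.51e-06 to 0.252 and 5.83e-06 to 0.241 over alternatives). The cardiac release channel Ryr2 had 55 counts over the KO libraries and 11 over WT (1.61, edgeR FDR 0.0766). Ryr2 passed with 6 separate libraries (FDR 0.0314 in edgeR, over alternatives up to 0.237).

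Of the other pump and the small pump regulators, 1 of 3 tested rose (median 0.54). Atp2a3, the pump of blood cells and epithelia, had 8.70 ± 0.119 CPM in KO against 5.53 ± 0.0734 in WT, a log2 fold change of 0.65 (edgeR FDR 0.00373, and 0.64 with an FDR of 0.0653 without KO 2, over alternatives 0.000286 to 0.830). The salivary gland list, whose epithelium differs from muscle, was higher in KO in 7 of 7 genes (511 to 545 summed CPM in KO, 40.0 to 43.5 in WT, none at 0), and its part in this result was not tested. Pln, phospholamban, and Mrln, myoregulin, which both restrain SERCA, had 3.25 ± 0.315 and 1.71 ± 0.568 CPM in KO and 2.26 ± 0.0966 and 1.19 ± 0.515 in WT. Neither passed (edgeR FDR 0.0680 and 0.340), although Pln did with 6 separate libraries (FDR 0.0170 in edgeR, over alternatives up to 0.850). Strit1 was too low to test.

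Store-operated entry and surface extrusion had 3 of 13 genes higher, against 9.15% of all genes, and none lower (median 0.26). Atp2b4, a calcium pump of the surface membrane, had 15.7 ± 0.0804 CPM in KO against 7.33 ± 0.154 in WT, a 2.14-fold difference (log2 fold change 1.1, edgeR FDR 2.21e-05). With sarcomere scaling it had 0.51 and did not pass (edgeR FDR 0.0500345, over alternatives 1.59e-07 to 0.0500345). Its relative Atp2b3, which is mainly neuronal, had 115 counts over the KO libraries and 29 over WT (1.31, edgeR FDR 0.0286). Stim1, the reticulum's calcium sensor and the most abundant of the list over both groups together, rose by 0.43 (edgeR FDR 0.0192). Stim1 had log2 fold changes of 0.36 and 0.45 without KO 1 or KO 2 and did not pass (edgeR FDR 0.0602 and 0.164, over alternatives 0.00253 to 0.515), nor did Atp2b3 at 1.23, 1.44 and 1.14 without KO 1, KO 2 or WT 3 (0.0584, 0.0915 and 0.0741, over alternatives 0.00759 to 0.181). The sodium-calcium exchanger Slc8a1 had 1.58 ± 0.0933 CPM in KO against 0.855 ± 0.339 in WT (0.82, edgeR FDR 0.0775, or 0.0444 without KO 3, over alternatives up to 0.500). Smooth muscle, which also holds Atp2b4, had 3 of 6 listed genes higher (150 to 160 summed CPM in KO and 116 to 125 in WT, none at 0), and its part was not tested.

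None of 9 genes of mitochondrial calcium transport passed in edgeR (median -0.11), and 0 passed in the DESeq2 Wald test. At an unadjusted p under 0.05 edgeR gave 1 of the 9, and the share of all genes was not computed. Smdt1, the uniporter's essential small subunit and the most abundant of the list, had 11.6 ± 1.26 CPM in KO against 12.4 ± 3.77 in WT. Also named by rule were Micu2, a gatekeeper of the uniporter (-0.22), Mcur1 (0.21) and Letm1 (0.20), with edgeR FDRs of 0.272, 0.378 and 0.366.

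Of 10 tested genes of membrane excitation, 3 rose, where 9.15% of all genes did, and none fell (median 0.35). Musk, the receptor kinase that organises the neuromuscular endplate, had 196 counts over the KO libraries and 26 over WT, a 5.04-fold difference (log2 fold change 2.33, edgeR FDR 0.000354), and it held without any single library. Scn4a, the sodium channel of the muscle action potential, rose by 0.60, and Chrnb1, a subunit of the muscle acetylcholine receptor, by 0.65 (edgeR FDR 0.00398 and 0.00754). Without KO 2 they were 0.63 and 0.60 and did not pass (edgeR FDR 0.0573 and 0.112, over alternatives 0.000274 to 0.973 and 0.000309 to 0.893). Chrna1, the alpha subunit of that receptor, had 69 counts in KO and 75 in WT, a log2 difference of -0.83 (edgeR FDR 0.146).

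The calcium sensors and calcium-dependent enzymes had 4 of 10 genes higher (9.15% of all genes) and none lower (median 0.39), and the largest fold changes of the list were in muscle kinases. Mylk2, the calmodulin-dependent kinase of skeletal myosin light chains, had 154 ± 9.66 CPM in KO against 48.8 ± 0.729 in WT, a 3.15-fold difference (log2 fold change 1.66, edgeR FDR 9.96e-07). Phka1, the muscle alpha subunit of phosphorylase kinase, had 28.1 ± 2.33 CPM in KO against 8.27 ± 0.571 in WT (1.76, edgeR FDR 5.37e-07), and Phkg1, its catalytic subunit, rose by 0.64 (edgeR FDR 0.00118). Mylk2 and Phka1 were called without any single library and also against the sarcomere genes, whereas Phkg1 had 0.63 without KO 2 (edgeR FDR 0.0526, over alternatives 7.28e-06 to 0.829). Capn3, a calcium-dependent protease of muscle, rose by 0.55 (edgeR FDR 0.0286) and had 0.52, 0.47 and 0.42 without KO 1, KO 2 or WT 1 (edgeR FDR 0.0503, 0.258 and 0.104, over alternatives 0.0108 to 0.965). Tnnc2, the fast troponin that binds the released calcium, was the most abundant, with 751 ± 126 CPM in KO against 487 ± 151 in WT (0.62, edgeR FDR 0.0797).

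**Figure D4:**
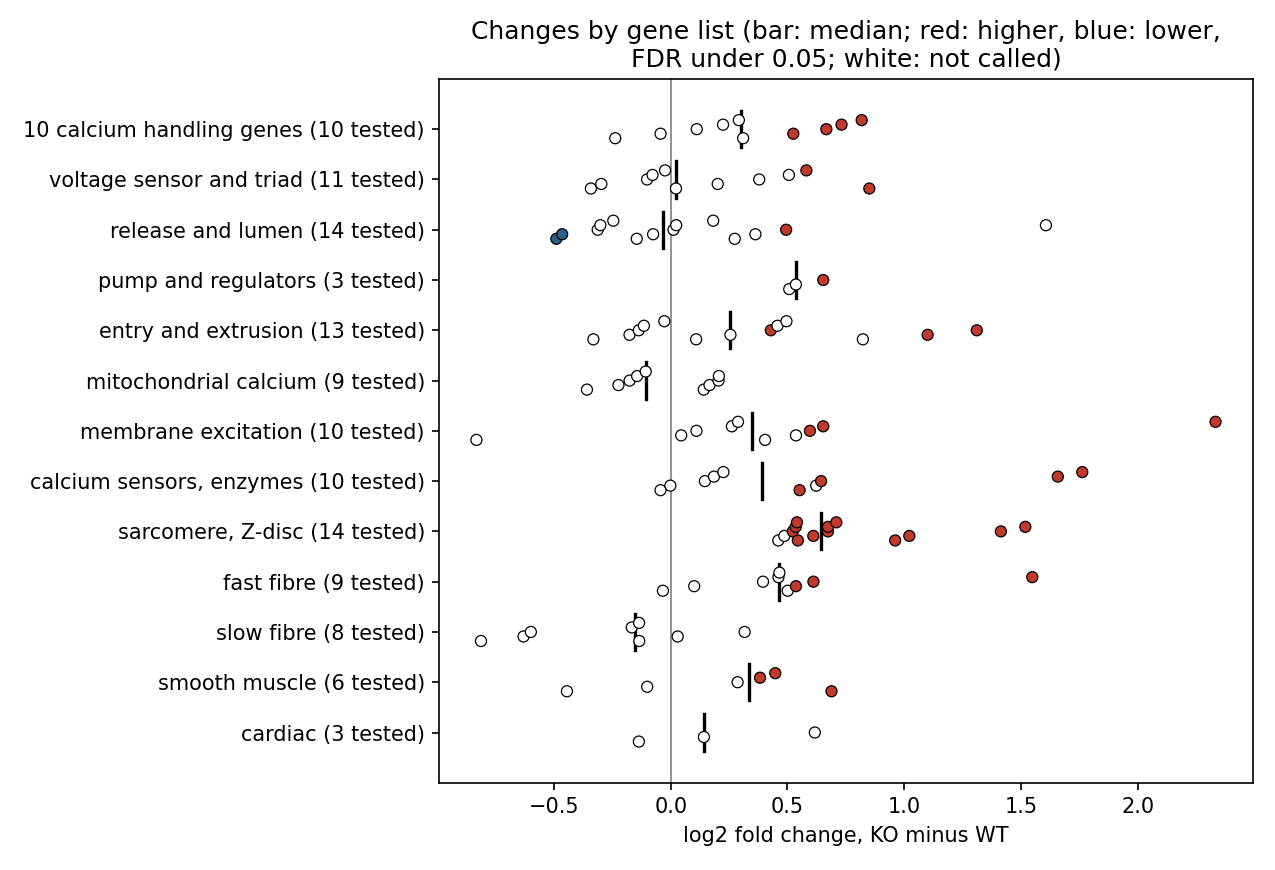
Log2 fold change (KO minus WT, horizontal axis) of every tested gene in the 10 calcium handling genes, the 7 lists around them and the muscle context lists, 1 point per gene, with a bar at each list's median. Red points were called higher and blue points lower by edgeR; the sarcomere list (median 0.64) lies to the right of the 10 genes (0.30) and the slow fibre list (-0.15) to the left of 0.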

How the data were processed

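Per the labels' protocols, RNA was taken up in TRIzol and mRNA was isolated with a kit. HISAT2 2.1.0, StringTie 2.1.5 and mm39 are named, without roles, in the submitters' processing notes. Annotation, strand setting and treatment of multi-mapped reads: not given in the sources used here. As deposited by the authors, the table holds raw counts per gene symbol, not normalized. All 6 value columns were used.

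The genes and gene lists were chosen with earlier results of these data known. Libraries of a group were pooled where the median variance ratio, taken over nuclear genes with at least 20 summed counts and with 2 counts per read pair, was under 1.1. Genes with 2 counts outnumbered genes with 1 by 4.69 to 5.06 times, hence the 2 counts per pair. Counts were tested across all genes with edgeR 4.0.16 in R 4.3.3 (filterByExpr, minimum count 10, TMM, robust quasi-likelihood fit, Benjamini-Hochberg FDR), a script tested on simulated data. The SE is the absolute log2 fold change over the square root of F. DESeq2 1.42.0 served as an alternative. An NA adjusted p in DESeq2 was kept as NA. TMM factors were 1.22 and 1.20 in KO and 0.862 and 0.794 in WT.

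Named by rule were Igf2bp2, the 10 genes, and from each list the most abundant member, up to 4 of smallest p and those called. Of the context lists the most abundant were Ckm, Tnnt3, Tpm3 and Myh6 in muscle (none at 0 in every library), with Ckm at 1178 CPM in KO and 856 in WT (not called) and Tnnt3 at 1223 and 801 (edgeR FDR 0.0206; without KO 2 the log2 fold change was 0.71 with FDR 0.171, and without WT 1 it was 0.43 with FDR 0.0840). Col2a1, Acan and Prg4 were taken outside the rule. Chrng was not analysed here, and some genes that the rule names are not reported here. Lengths came from GENCODE M21 transcripts.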

Additional observations from a re-analysis of the deposited data

How the results depend on the processing

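The DESeq2 Wald test called 1371 of 22032 genes, a total that includes any without an adjusted p and so is unlike the totals tested in edgeR. In the edgeR fit 2580 of 14632 tested genes differed, and with sarcomere scaling 6996 of 14536. With 1 library left out they were 1149 to 2434, of 13995 to 15821 tested, the lowest without KO 2, where 1 KO sample is left. The 4 higher genes of the 10 were 1 to 4 with 1 library left out, the lowest again without KO 2, and 0 with sarcomere or fast fibre scaling. The count of lower genes was 3 with sarcomere scaling and 0 in every other alternative run. Pathway genes were 14 higher and 2 lower, 3 and 23 with sarcomere scaling, 5 lower with 6 separate libraries, and 5 to 15 higher and 0 to 4 lower with 1 library left out. The median of all genes was -0.43 with fast fibre scaling, which was added after the data had been seen.

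Direction turned under sarcomere scaling in Cacna1s (-0.49), Atp2a1 (-0.077), Atp2a2 (-0.29), Sln (-0.28), Jph1 (-0.39), Stac3 (-0.020), Tmem38a (-0.10), Pln (-0.064), Mrln (-0.059), Stim1 (-0.17), Letm1 (-0.39), Mcur1 (-0.40), Capn3 (-0.013) and Ckm (-0.12). That scaling lowers every gene by construction where sarcomere genes are higher. It turned under fast fibre scaling in Cacna1s (-0.32), Atp2a2 (-0.11), Sln (-0.10) and Jph1 (-0.23). With 1 library left out, Casq1 spanned -0.10 to 0.0046, Smdt1 -0.36 to 0.00060, the Sln/Atp2a1 log2 difference -0.44 to 0.045 and that of Pvalb/Atp2a1 -0.047 to 0.49. The cause was not tested.

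Deviations of same-numbered libraries had correlations of -0.104, -0.141 and 0.0816, and KO 2 correlated best with WT 1 (0.220). Deviations from a group mean cancel within the group. The correlations therefore depend on each other and cannot show whether the numbers pair libraries. With the replicate block on 6 libraries 2941 genes and 4 of the 10 were called, and 3452 and 3 without it. Sln, with 37 to 94 counts per library, is limited by depth.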
